A study of Mus musculus with 6 samples.

Results

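The genes described here encode the enzymes and regulators of de novo fatty acid synthesis, 10 genes picked by symbol (Thrsp, Fasn, Acaca, Acacb, Acly, Me1, Elovl6, Scd1, Srebf1 and Mlxipl) from the 18422 genes of a read-count table of mouse ear skin. All 10 were in the table and all 10 passed the filter on low counts, which 14866 genes passed. Skin was taken at postnatal day 21, with 3 samples from mice that lacked Vegfr2 in endothelial cells, named ecko, and 3 from littermate controls. Vegfr2, official symbol Kdr, encodes the main receptor for VEGF-A on endothelial cells. All 6 samples came from mice given tamoxifen, the drug that starts the gene deletion. Pups of the study were dosed from postnatal day 1 or day 10, and neither the schedule of these mice, the Cre driver of the deletion nor the alleles of the controls are given in the sources used here.

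Kdr had 58, 37 and 42 counts in ecko libraries 1 to 3 and 475, 511 and 595 counts in control libraries 1 to 3. Its level was 2.59 ± 0.688 CPM (counts scaled to the library total) in ecko skin and 30.1 ± 3.27 CPM in control skin (SD, n = 3 each), a log2 fold change of -3.54 with a standard error (SE) of 0.17 and an adjusted p of 2.68e-05 by edgeR. Libraries held 17255419 to 18054700 counts. At a Benjamini-Hochberg adjusted p under 0.05 in the quasi-likelihood test of edgeR, the rule for every call here, 102 of all genes tested were higher and 160 lower in ecko skin. With 1 library left out these counts lay between 22 and 165 and between 34 and 242, lowest without ecko 2 and highest without control 3, and each of the 6 libraries moved at least 1 of them by more than 1.5 times. Reads from 4 Y-linked genes numbered 36 in ecko 3, 24 in control 3 and 3712 to 4390 in the other 4 libraries, so each group held 2 male samples and 1 female sample. No label says that the samples of a group came from separate animals, though the male and the female samples cannot share an animal. The p-values measure only the spread between these samples, part of which may be technical.

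De novo synthesis builds fatty acids from surplus carbon. Citrate leaves the mitochondria and ATP citrate lyase (Acly) cuts it to acetyl-CoA. Acetyl-CoA carboxylase 1 (Acaca) turns acetyl-CoA into malonyl-CoA, and fatty acid synthase (Fasn) joins these units into palmitate with NADPH, part of which comes from malic enzyme 1 (Me1). Elovl6 lengthens palmitate and Scd1 puts a double bond into the product. Acetyl-CoA carboxylase 2 (Acacb) lies at the mitochondrial surface, where its malonyl-CoA blocks the carnitine palmitoyltransferase CPT1 and with it fatty acid oxidation. Transcription of the pathway is driven by SREBP-1 (Srebf1) under insulin and by ChREBP (Mlxipl) under glucose, while Thrsp, also called Spot 14, is a small thyroid hormone-responsive protein of lipid-making tissues. In skin, fat cells below the dermis and sebaceous glands at the hair follicles are the well-known sites of this synthesis.

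Of the 10 genes, 2 fell in ecko skin and 0 rose by edgeR. Of all genes tested, 1.08% fell and 0.686% rose, 1.76% in all. At an unadjusted edgeR p under 0.05, 6 of the 10 were lower and 0 were higher, beside 7.95% lower and 7.41% higher of all genes. DESeq2 and limma-voom also called 2 of the 10 lower and 0 higher. Over all genes DESeq2 called 1.5% lower and 1.27% higher, and limma-voom 1.03% lower and 0.558% higher. The genes that fell were Thrsp, to 34.4% of its control mean, and Fasn, to 71.9%. Log2 fold changes of the 10 had a median of -0.22, with 8 below 0, beside a median of -0.00 over all genes tested, of which 50.5% were below 0. In 6 of the 10 genes (Thrsp, Fasn, Acly, Scd1, Srebf1 and Mlxipl) every ecko library lay below every control library, which held for 10.8% of all genes tested. In none of the 10 did every ecko library lie above every control library, which held for 10.2% of all genes. The 10 genes, like the lists below, were chosen with earlier results of these data known, so such comparisons with all genes only describe them.

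**Figure D1:**
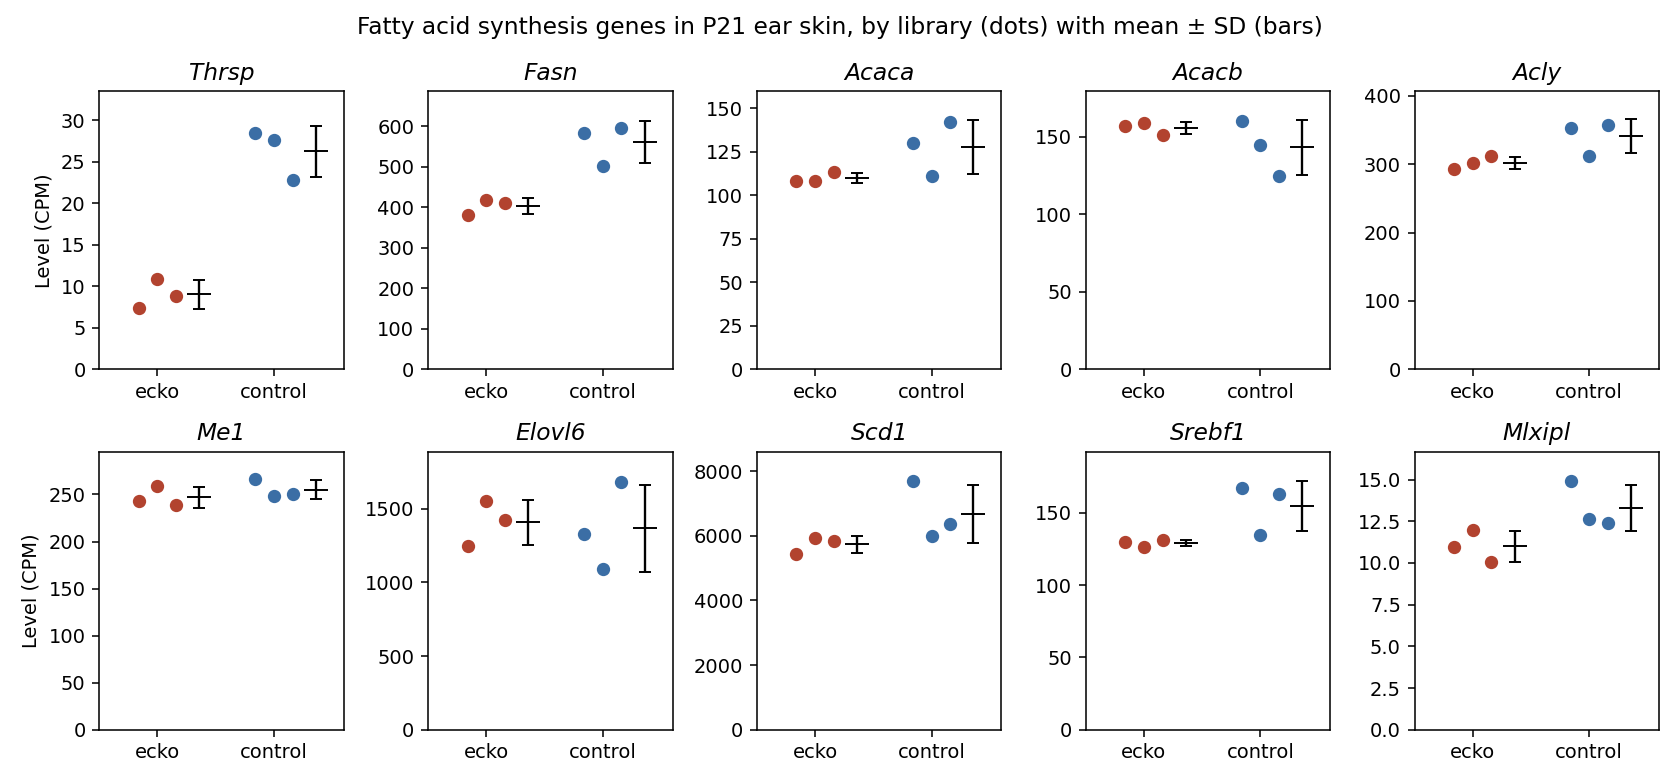
Level in CPM (vertical axes, from 0, each gene on its own scale) of the 10 fatty acid synthesis genes in the 3 ecko and the 3 control libraries. Dots are libraries 1 to 3 from left to right, and bars give the mean and SD; Thrsp and Fasn are clearly separated between groups, and Acaca, Acacb, Me1 and Elovl6 overlap.

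Thrsp had the lowest log2 fold change of the 10. It lies on chromosome 7 (97412933 to 97417550, GRCm38.p6). Its counts were 128, 196 and 158 in the ecko libraries and 492, 485 and 401 in the control libraries. As CPM these were 7.42, 10.8 and 8.83 in ecko skin and 28.4, 27.6 and 22.7 in control skin. The highest ecko library stood below the lowest control library by more than the SD of either group. The mean was 9.03 ± 1.72 CPM in ecko skin and 26.2 ± 3.07 CPM in control skin (SD, n = 3 each). The log2 fold change was -1.54 (SE 0.14, 95% interval -1.86 to -1.21, edgeR adjusted p = 0.00118), which put Thrsp at rank 13 from the lowest of the 14866 genes. The call held in each of the 15 other fits, with log2 fold changes between -1.69 and -1.41 and adjusted p up to 0.0112. Because whole skin was sequenced, fewer cells of a type and less RNA per cell cannot be told apart, here and in all results that follow.

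Fasn, on chromosome 11 (120805958 to 120825166), was the other gene that fell. Its level was 381, 419 and 409.8 CPM in ecko libraries 1 to 3 and 584, 502 and 596 CPM in control libraries 1 to 3. The groups did not overlap, and control 2 was the control nearest to the ecko libraries. The mean was 403 ± 20.0 CPM in ecko skin and 561 ± 51.2 CPM in control skin (SD, n = 3 each). Its log2 fold change was -0.48 (SE 0.08, 95% interval -0.66 to -0.29, edgeR adjusted p = 0.0220). Over 15 other fits the log2 fold change lay between -0.55 and -0.43, and 5 of them lost the call. The adjusted p was 0.124 without ecko 1, 0.0912 without ecko 2, 0.0800 without ecko 3, 0.0521 without control 1 and 0.117 in the male libraries alone. The ratio of Thrsp to Fasn CPM was 0.0195, 0.0259 and 0.0216 in ecko libraries and 0.0486, 0.0550 and 0.0381 in control libraries, a log2 difference of -1.08 without overlap (two-sided exact permutation p = 0.1, the smallest that 3 against 3 allows, adjusted p = 0.125 over 5 ratios between genes chosen after the values were seen).

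The 250 bases before a RefSeq transcript start (GRCm38.p6) are printed for Thrsp and Fasn, the genes that fell, and for Acly. Acly did not pass the test and is printed to set the motifs side by side. The Fasn window lies inside the interval given for the gene, which ends at 120825166, so the start it precedes is not the outermost one. Sequences run 5′ to 3′ on the gene's own strand, which is the minus strand in all 3. Capitals mark CCAAT, the box bound by NF-Y, and GGGCGG, the GC box of SP1-type factors, on either strand.
Thrsp, chr7:97417551-97417800: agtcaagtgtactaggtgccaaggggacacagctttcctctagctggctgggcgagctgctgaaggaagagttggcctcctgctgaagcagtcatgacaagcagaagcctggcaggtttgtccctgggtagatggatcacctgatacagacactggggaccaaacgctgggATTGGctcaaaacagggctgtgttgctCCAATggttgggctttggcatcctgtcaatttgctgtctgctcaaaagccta
Fasn, chr11:120824548-120824797: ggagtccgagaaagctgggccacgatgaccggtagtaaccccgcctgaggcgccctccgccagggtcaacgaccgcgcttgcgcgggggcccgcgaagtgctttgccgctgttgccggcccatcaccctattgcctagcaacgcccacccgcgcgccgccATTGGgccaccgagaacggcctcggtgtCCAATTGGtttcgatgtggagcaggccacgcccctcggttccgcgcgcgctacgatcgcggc
Acly, chr11:100528001-100528250: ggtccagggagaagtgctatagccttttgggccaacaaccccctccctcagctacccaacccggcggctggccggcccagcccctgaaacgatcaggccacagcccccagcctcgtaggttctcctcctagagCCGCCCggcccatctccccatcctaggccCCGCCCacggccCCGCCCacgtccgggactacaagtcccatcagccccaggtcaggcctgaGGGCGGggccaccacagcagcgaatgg

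The Thrsp window held CCAAT boxes whose first base lay 79 and 52 bases before the start, the first of them on the reverse strand. The Fasn window held them at 90, 62 and 59 bases before the start, and the last pair overlaps in a palindrome. The Acly window had no CCAAT and 4 GC boxes, and the Thrsp and Fasn windows had no GC box. CCAAT is common: 33.8% of all 32851 promoter windows of that length in the RefSeq table held it, and so did 7 of the 13 windows of these genes, over 6 genes. Besides Thrsp and Fasn these were Acacb, Me1, Mlxipl and Srebf1, which did not pass the test, so the box did not separate called from uncalled genes. GGGCGG was in 32.7% of all windows and in 5 of the 13, those of Acly, Me1, Mlxipl and Srebf1. The E-box CACGTG was in 6.02% of all windows and in 1 of the 13, that of a Mlxipl start. TCACNCCAC, a core of the sterol regulatory element that SREBP binds, was in 1.05% of all windows and in 1 of the 13, at the other Mlxipl start. TATAAA was in 12.4% of all windows and in 1 of the 13, that of Acacb, and the DR4 element of nuclear receptors, AGGTCA repeated after 4 other bases, was in 0.0152% and in 0 of the 13. All motifs were searched on both strands as exact letters, and a missing match says only that these letters are not in the window. The windows covered 9 of the 10 genes. In GENCODE M21 the Thrsp transcript starts further upstream, and 180 of the 250 bases lie in its exon.

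Both transcription factor genes had lower values without passing the test. Srebf1 (chromosome 11, 60199084 to 60224186) was at 129, 127 and 131 CPM in ecko libraries and at 167, 135 and 163 CPM in control libraries. The ecko libraries were nearly equal and all lay below the controls, among which control 2 was the lowest. The log2 fold change was -0.26 (SE 0.08, 95% interval -0.44 to -0.08, edgeR adjusted p = 0.161), and without control 2 it was -0.35 and passed (adjusted p = 0.0361). The count joins the transcripts of SREBP-1a and SREBP-1c, and 1.93% of the exon bases of Srebf1 are shared with Rai1 on the other strand. Mlxipl (chromosome 5, 135089890 to 135139768) had the lowest level per kilobase of the 10, at 11.0, 12.0 and 10.1 CPM in ecko libraries and 14.9, 12.6 and 12.4 CPM in control libraries. Ecko 2 stood just below control 3. Its log2 fold change was -0.28 (SE 0.11, 95% interval -0.53 to -0.03, edgeR adjusted p = 0.281).

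Among the genes that supply carbon and reducing power, Acly was lower without passing the test and for Me1 the groups overlapped. Acly (chromosome 11, 100476352 to 100528000) was at 293, 301 and 311 CPM in ecko skin and 354, 312 and 357 CPM in control skin. The gap between ecko 3 and control 2 was under 1 CPM. The log2 fold change was -0.18 (SE 0.07, 95% interval -0.33 to -0.02, edgeR adjusted p = 0.269). Me1 (chromosome 9, 86581363 to 86695914) was at 243, 259 and 239 CPM in ecko skin and 267, 248 and 250.4 CPM in control skin, with overlapping groups. Its log2 fold change was -0.05 (SE 0.06, edgeR adjusted p = 0.785), with a 95% interval of -0.18 to 0.09.

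The carboxylase genes had log2 fold changes of opposite sign, and neither passed the test. Acaca (chromosome 11, 84129635 to 84401651) was at 108, 108 and 113 CPM in ecko libraries and 130.0, 111 and 142 CPM in control libraries, with ecko 3 above control 2. Its log2 fold change was -0.22 (SE 0.08, 95% interval -0.41 to -0.03, edgeR adjusted p = 0.260). Acacb (chromosome 5, 114146321 to 114250761) was at 157, 159 and 151 CPM in ecko libraries and 160.4, 145 and 125 CPM in control libraries. Control 1 was the highest of the 6 and control 3 the lowest, so the groups overlapped. Its log2 fold change was 0.12 (SE 0.08, 95% interval -0.07 to 0.31, edgeR adjusted p = 0.563). Within a library, the ratio of Acacb to Acaca CPM was 1.45, 1.47 and 1.34 in ecko skin and 1.23, 1.31 and 0.879 in control skin. Every ecko library had the higher ratio, a log2 difference of 0.34 (two-sided exact permutation p = 0.1, the smallest possible, adjusted p = 0.125 over the 5 ratios), and of 0.16 without control 3.

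The products of the elongase gene Elovl6 and the desaturase gene Scd1 act on the finished fatty acid, and neither gene passed the test. Scd1 (chromosome 19, 44394450 to 44407709) was at 5436, 5920.1 and 5847 CPM in ecko libraries and 7696, 5999 and 6356 CPM in control libraries. It supplied 66.8% to 67.9% of the summed CPM of the 10 genes in ecko skin and 65.5% to 71.8% in control skin. The groups did not overlap, by a narrow margin between ecko 2 and control 2, and control 1 stood above the rest. The log2 fold change was -0.22 (SE 0.12, 95% interval -0.49 to 0.05, edgeR adjusted p = 0.421). All 6 Scd1 values were fractional, as were those of the similar genes Scd2 and Scd3, so some of their reads were assigned by estimate. These genes are similar in sequence, which genes shared the reads was not tested, and their values are uncertain. Elovl6 (chromosome 3, 129532386 to 129638495) was at 1247, 1549 and 1421 CPM in ecko libraries and 1324, 1093 and 1682 CPM in control libraries. Relative to its mean it had the widest spread of the 10 genes among controls, and control libraries were both the lowest and the highest. Its log2 fold change was 0.04 (SE 0.15, 95% interval -0.29 to 0.37, edgeR adjusted p = 0.931), and the sign turned without ecko 2 or without control 2. The ratio of Scd1 to Elovl6, the last of the 5 ratios, overlapped between groups (log2 difference -0.27, two-sided exact permutation p = 0.4).

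**Figure D2:**
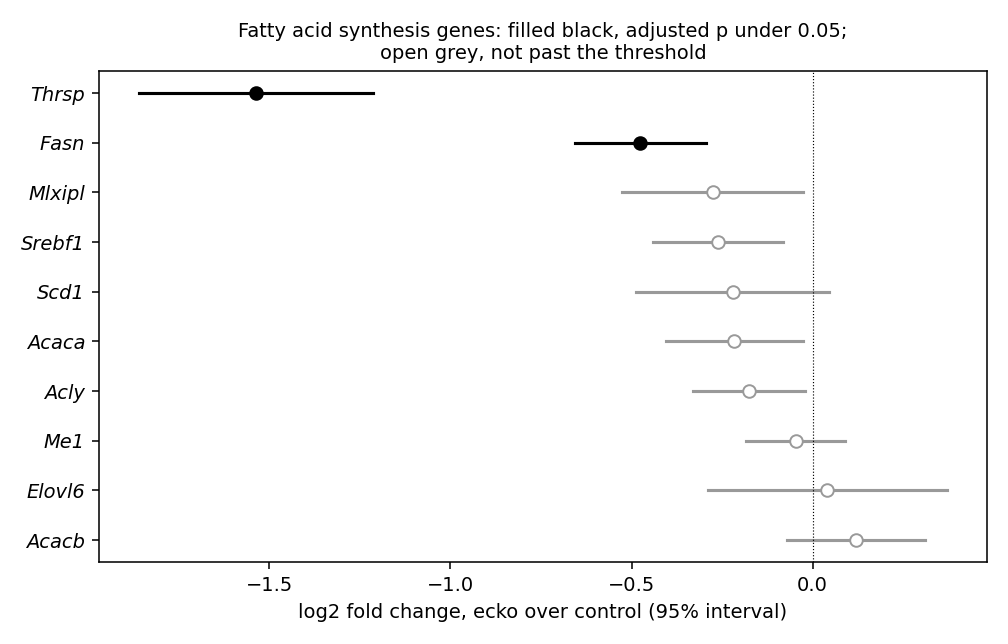
Log2 fold change of ecko over control (horizontal axis) for the 10 genes, with 95% intervals from the edgeR quasi-likelihood fit. Thrsp at -1.54 and Fasn at -0.48 passed an adjusted p of 0.05 (filled), the other genes did not (open), and Acacb and Elovl6 lay above 0.

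Levels per kilobase of exon put the genes in nearly the same order in both groups. Scd1 led, at 1172 ± 53.3 CPM per kilobase in ecko skin and 1366 ± 183 in control skin (SD, n = 3 each). Elovl6 came next, at 219 ± 23.6 and 212 ± 46.1 CPM per kilobase in ecko and control skin. Me1, Acly, Fasn, Srebf1 and Acacb followed in this order in both groups, between 64.1 and 16.2 in ecko skin and between 66.3 and 14.9 in control skin. Thrsp stood below Acaca in ecko skin, at 4.13 ± 0.787 against 6.43 ± 0.167, and above it in control skin, at 12.0 ± 1.40 against 7.47 ± 0.918. Mlxipl was last, at 1.82 to 2.16 in ecko libraries and 2.24 to 2.69 in control libraries. In ecko skin no neighbours in this order overlapped between libraries, and in control skin Acly overlapped with Me1 and Thrsp with Acacb. Exon lengths joined all GENCODE M21 transcripts of a gene, so genes with many transcripts have longer summed exons and lower levels on this scale.

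Lists of the neighbouring steps held 83 genes, of which 82 were tested, and 1 rose and 1 fell. Each is 1.22% of the 82, close to the 0.686% higher and 1.08% lower among all genes. DESeq2 called 2 of them higher and 7 lower. Leaving out control 1 gave 2 rises and 2 falls, leaving out control 2 gave 1 and 4, and leaving out control 3 gave 3 and 2. Their median log2 fold change was -0.08.

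The gene that rose was Cpt1a. It encodes a form of CPT1, the enzyme that malonyl-CoA inhibits, and so stands at the entry of fatty acids into mitochondrial oxidation. It was at 161, 160 and 153 CPM in ecko libraries and 110, 114 and 118 CPM in control libraries, without overlap. The log2 fold change was 0.47 (SE 0.05, edgeR adjusted p = 0.00453), and the call held in all 15 other fits. The ratio of Fasn to Cpt1a CPM was 2.36, 2.62 and 2.67 in ecko skin and 5.31, 4.39 and 5.07 in control skin (two-sided exact permutation p = 0.1, the smallest possible; adjusted p = 0.125 over the 5 ratios). Of the other 3 genes on malonyl-CoA turnover, the decarboxylase gene Mlycd was at 0.07 (SE 0.09), the muscle form Cpt1b at -0.01 (SE 0.11) and the brain form Cpt1c at -0.16 (SE 0.11) on the log2 scale.

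The gene that fell was Fads2, the delta-6 desaturase of polyunsaturated fatty acids. It was at 19.9, 20.3 and 21.4 CPM in ecko libraries and 33.3, 30.8 and 31.8 CPM in control libraries, with a wide gap between the groups. The log2 fold change was -0.64 (SE 0.07, edgeR adjusted p = 0.00455), and it too was called in all 15 other fits. It was the only edgeR call among 18 genes that desaturate, elongate and esterify fatty acids. Of the 18, 12 were below 0 and 6 above, against 50.5% of all genes below 0. At an unadjusted edgeR p under 0.05, 8 were lower and 2 higher, beside 7.95% and 7.41% of all genes. Every ecko library lay below every control library in 6 and above in 2, against 10.8% and 10.2% of all genes. Agpat2, an acyltransferase of glycerolipid synthesis whose loss causes lipodystrophy, was at -0.41 (SE 0.09, edgeR adjusted p = 0.0611). The triglyceride synthesis gene Dgat2 was at -0.29 (SE 0.07, edgeR adjusted p = 0.0982). Pnpla3, a target of SREBP-1 and ChREBP, was at -0.30 (SE 0.08, edgeR adjusted p = 0.119). DESeq2 called Agpat2, Dgat2, Scd2 and Fads2 lower and Elovl7 higher. Elovl3 and Elovl7, elongases of longer chains than those of Elovl6, were higher in every ecko library, at 0.39 (SE 0.13) and 0.39 (SE 0.12) on the log2 scale, with edgeR adjusted p of 0.202 and 0.155. The desaturase gene Scd2 was at -0.41 (SE 0.13) and Scd3, a sebaceous gland form in mouse, at -0.56 (SE 0.21), both with overlapping groups and fractional counts. Scd4 lay between 1.14 and 1.74 CPM in all 6 libraries.

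Genes that feed acetyl-CoA and NADPH into synthesis had 0 of 12 called by edgeR, with 7 lower and 0 higher at an unadjusted p under 0.05, beside 7.95% and 7.41% of all genes. Log2 fold changes lay below 0 in 11 of the 12, against 50.5% of all genes, with a median of -0.17. In 7 of the 12 every ecko library lay below every control library, against 10.8% of all genes. Acss2, which makes acetyl-CoA from acetate, was at 42.1, 42.6 and 50.2 CPM in ecko skin and 77.7, 49.7 and 57.9 CPM in control skin. Ecko 3 lay above control 2, and the log2 fold change was -0.46 (SE 0.15, edgeR adjusted p = 0.178). Aacs, which activates acetoacetate for lipid synthesis, was at -0.36 (SE 0.08, edgeR adjusted p = 0.0603), Pcx, pyruvate carboxylase, at -0.28 (SE 0.07, edgeR adjusted p = 0.0951) and Slc2a4, the insulin-responsive glucose transporter GLUT4 of fat and muscle, at -0.29 (SE 0.09, edgeR adjusted p = 0.148). The pentose phosphate genes G6pdx and Pgd, which make NADPH, were at 0.04 (SE 0.06) and -0.05 (SE 0.05). DESeq2 called Acss2 and Aacs lower, and limma-voom called 0 of the 12.

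Among 19 regulators of the pathway 0 passed by edgeR and limma-voom, and DESeq2 called 1, Insig1. At an unadjusted edgeR p under 0.05, 1 of the 19 was lower, beside 7.95% of all genes. The median log2 fold change of the 19 was -0.04. Insig1, which holds the SREBP complex in the endoplasmic reticulum and is itself a target of SREBP, was at 50.9, 63.7 and 63.7 CPM in ecko libraries and 93.6, 67.9 and 91.7 CPM in control libraries. The groups did not overlap, and the log2 fold change was -0.51 (SE 0.13, edgeR adjusted p = 0.0982). Its paralog Insig2 was at 0.17 (SE 0.08) and Srebf2, which drives cholesterol synthesis, at -0.12 (SE 0.07). Nr1h3, the LXR-alpha gene that activates Srebf1, was at -0.22 (SE 0.14). Mid1ip1, the paralog of Thrsp whose protein binds acetyl-CoA carboxylase, overlapped between groups, at 118, 113 and 109 CPM in ecko skin and 126, 106 and 126 CPM in control skin (log2 fold change of -0.07 with SE 0.08, edgeR adjusted p = 0.735). The ratio of Thrsp to Mid1ip1 was lower in every ecko library, at 0.0626 to 0.0957 in ecko skin and 0.181 to 0.261 in control skin (two-sided exact permutation p = 0.1; adjusted p = 0.125 over the 5 ratios).

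The cholesterol branch, which uses the same acetyl-CoA and is driven by SREBP-2, had 0 of 21 genes called by edgeR, DESeq2 or limma-voom. At an unadjusted edgeR p under 0.05, 3 were lower and 1 higher, beside 7.95% and 7.41% of all genes. The median log2 fold change was -0.15, with 18 of the 21 below 0, against 50.5% of all genes. Nsdhl and Hsd17b7, which encode enzymes of the later, sterol-forming steps, were at -0.36 (SE 0.14) and 0.40 (SE 0.13) on the log2 scale. The summed level of the 21 genes varied more between control libraries, from 3172 to 4351 CPM, than between ecko libraries, from 3528 to 3939 CPM. Mitochondrial fatty acid synthesis, a separate pathway that makes the precursor of lipoic acid, had 0 of 8 tested genes called by any of the 3 tools and 0 at an unadjusted p under 0.05. Its log2 fold changes ran from -0.11 to 0.09.

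**Figure D3:**
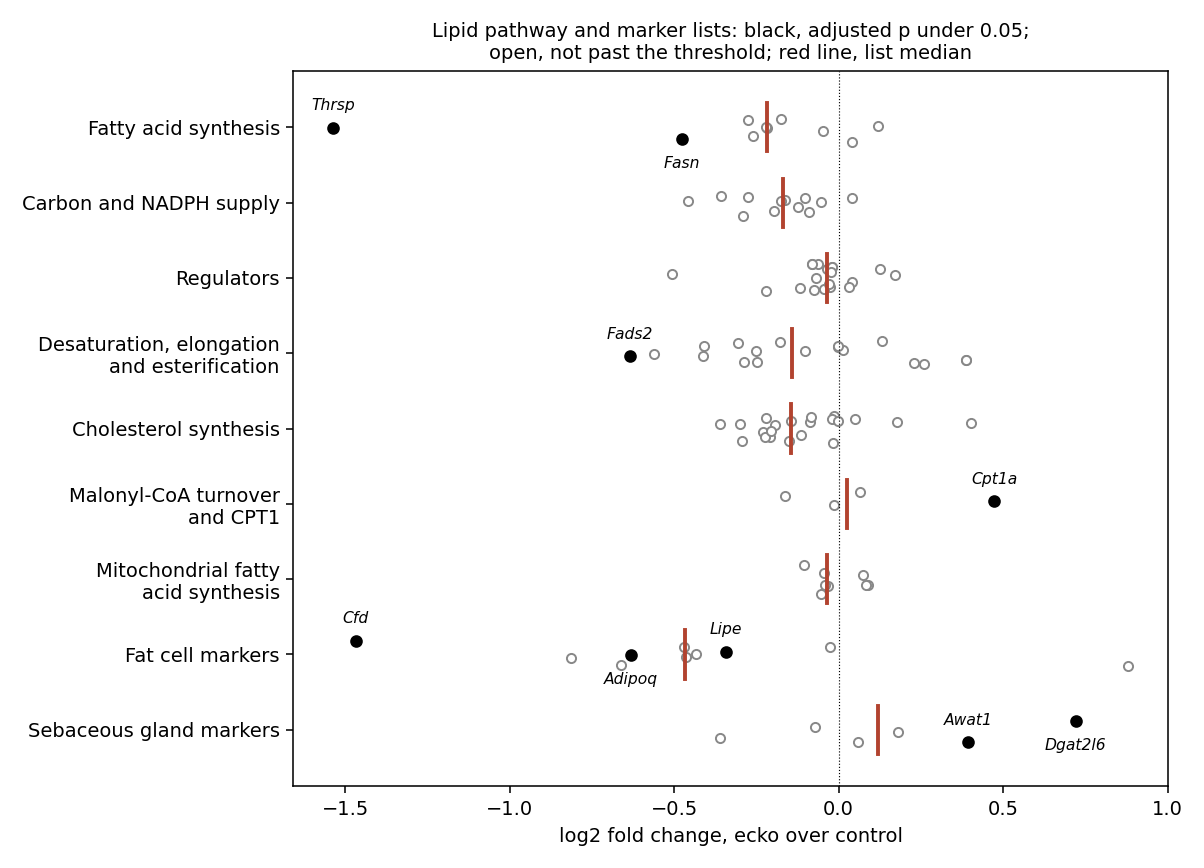
Log2 fold change of ecko over control (horizontal axis) for each tested gene of the fatty acid synthesis genes, 6 lists of neighbouring steps and the fat cell and sebaceous gland markers. Filled points passed an adjusted p of 0.05 and are named, open points did not, and red lines are list medians, which lie at -0.22 for the synthesis genes and at -0.47 for the fat cell markers.

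Markers of the cell types that make fatty acids in skin moved in different directions. Of 10 fat cell markers 3 fell and 0 rose by edgeR, beside 1.08% and 0.686% of all genes. The 10 had a median log2 fold change of -0.47. At an unadjusted edgeR p under 0.05, 7 were lower and 1 higher, beside 7.95% and 7.41% of all genes. DESeq2 called 6 lower (Adipoq, Plin1, Cfd, Cidec, Retn and Lipe) and limma-voom 2 (Adipoq and Cfd), and neither called any higher. Their summed level was 299 to 363 CPM in ecko skin and 388 to 493 CPM in control skin, and no marker was at 0. Adipoq, the adiponectin gene, was at 23.6, 33.1 and 27.7 CPM in ecko libraries and 41.9, 47.8 and 41.3 CPM in control libraries (log2 fold change of -0.63 with SE 0.12, edgeR adjusted p = 0.0302). Of the other fat cell markers, Cfd fell by 1.47 and the lipase gene Lipe by 0.34 on the log2 scale (edgeR adjusted p = 0.000454 and 0.0477). The lipid droplet genes Plin1 and Cidec were at -0.66 (SE 0.18) and -0.47 (SE 0.13), Retn at -0.81 (SE 0.20), Slc7a10 at -0.46 (SE 0.15), Adrb3 at -0.43 (SE 0.27) and Plin4 at -0.03 (SE 0.14), none of which passed in edgeR. Lep, which encodes leptin, had the opposite sign, at 12.7, 17.8 and 19.5 CPM in ecko skin and 5.48, 15.0 and 6.69 CPM in control skin (log2 fold change of 0.88 with SE 0.32, edgeR adjusted p = 0.231).

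Of 6 sebaceous gland markers 2 rose and 0 fell by edgeR, beside 0.686% and 1.08% of all genes. At an unadjusted edgeR p under 0.05, 3 were higher and 0 lower, beside 7.41% and 7.95% of all genes. DESeq2 and limma-voom also called 0 lower. The summed level was 1186 to 1256 CPM in ecko skin and 992 to 1202 CPM in control skin. Dgat2l6, of the acyltransferase family of Dgat2, was at 23.0, 22.9 and 23.8 CPM in ecko libraries and 11.1, 14.6 and 16.4 CPM in control libraries (log2 fold change of 0.72 with SE 0.13, edgeR adjusted p = 0.0286). The wax synthase gene Awat1 rose by 0.39 on the log2 scale (SE 0.07, edgeR adjusted p = 0.0318). Krt79 was at 0.18 (SE 0.08), Far2 at 0.06 (SE 0.09), Mc5r at -0.07 (SE 0.13) and Awat2 at -0.36 (SE 0.22). Ucp1, the defining gene of brown fat, had 2 to 11 counts in the libraries, and of the 4 tested brown fat markers 0 were called by edgeR, DESeq2 or limma-voom and 0 were at an unadjusted p under 0.05. Skeletal muscle markers summed to 5037 to 5686 CPM in ecko skin and 5936 to 8898 CPM in control skin, with 0 of 8 called by any of these tools. At an unadjusted edgeR p under 0.05, 7 of the 8 were lower, beside 7.95% of all genes. Keratinocyte markers, which define skin, summed to 25379 to 28112 CPM in ecko skin and 22293 to 23579 CPM in control skin. Of these 6 markers 2 (Krt1 and Casp14) rose, beside 0.686% of all genes. Of 7 endothelial markers 6 fell, beside 1.08% of all genes. The sum of the 7 was 184 to 189 CPM in ecko skin and 289 to 331 CPM in control skin. Hair and fibroblast markers had 0 genes called by any of the tools and 0 at an unadjusted p under 0.05. Leukocyte markers had 0 called by edgeR and limma-voom and 1, Ptprc, higher by DESeq2 and at an unadjusted p under 0.05. The liver list, at 2.60 to 3.13 CPM in ecko skin and 4.85 to 7.23 CPM in control skin, had 1 call, Cyp2e1, which fell. The part of these cell types in the falls of Thrsp and Fasn was not tested.

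Set against fat cell markers in the same library, Thrsp was lower in every ecko library and Fasn overlapped between groups, whether the 3 markers Adipoq, Plin1 and Cidec, all 10 markers or Adipoq alone were used. The ratio of Thrsp to the summed CPM of Adipoq, Plin1 and Cidec was 0.136, 0.139 and 0.130 in ecko libraries and 0.313, 0.245 and 0.235 in control libraries. The ecko ratios were nearly equal and all below the controls, a log2 difference of -0.96 (two-sided exact permutation p = 0.1, the smallest possible; adjusted p = 0.250 over the 10 genes). For Fasn the ratio was 6.96, 5.37 and 6.01 in ecko libraries and 6.43, 4.45 and 6.16 in control libraries. These overlapped, with a log2 difference of 0.12 (two-sided exact permutation p = 0.7), and against all 10 markers the sign turned (-0.12, p = 0.6). Of the 10-marker sum, on average 335 CPM in ecko skin and 429 CPM in control skin, Plin4 alone gave 168 and 171 CPM. With the 3 markers, Acacb, Me1 and Elovl6 had higher ratios in every ecko library, by 0.72, 0.54 and 0.65 on the log2 scale, and the other 5 genes overlapped. Adipoq, Plin1 and Cidec were themselves at -0.63, -0.66 and -0.47 on the log2 scale, so a gene with equal CPM in both groups has a higher ratio. Before division Acacb, Me1 and Elovl6 were at 0.12, -0.05 and 0.04, and none was called. The share of all genes with higher ratios in every ecko library was not computed. Which of the 10 genes had such ratios depended on the markers. Against all 10 markers Elovl6 overlapped too (0.41, two-sided exact permutation p = 0.4) and Acacb and Me1 did not, and against Adipoq alone Acly (0.47) and Mlxipl (0.37) also had higher ratios in every ecko library.

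Set against the summed sebaceous gland markers, 8 of the 10 genes had lower ratios in every ecko library, and Acacb and Elovl6 overlapped. The same 8 had lower ratios against the summed keratinocyte markers. Both marker sums were higher on average in ecko skin, the sebaceous one at 1213 CPM against 1110 CPM in control skin. A gene with equal CPM in both groups therefore has a lower mean ratio. Me1, at a log2 fold change of -0.05, was among the 8. The share of all genes with such ratios was not computed. Fasn per sebaceous gland marker was 0.318, 0.333 and 0.346 in ecko skin and 0.514, 0.506 and 0.496 in control skin, with little spread in either group. Its log2 difference was -0.61 (two-sided exact permutation p = 0.1, the smallest possible; adjusted p = 0.125 over the 10 genes). Thrsp was thus the only one of the 10 that was lower in every ecko library against both the fat cell and the sebaceous gland markers. Its log2 fold change of -1.54 was below that of each of these markers, so lower mean ratios follow from it. The fat cell marker Cfd was nearly as low, at -1.47. The share of all genes that were lower against both was not computed. Most of the sebaceous sum came from Far2 and Krt79, on average 514 and 509 CPM in ecko skin and 494 and 449 CPM in control skin. Markers stand here for RNA of a cell type and not for cell number.

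**Figure D4:**
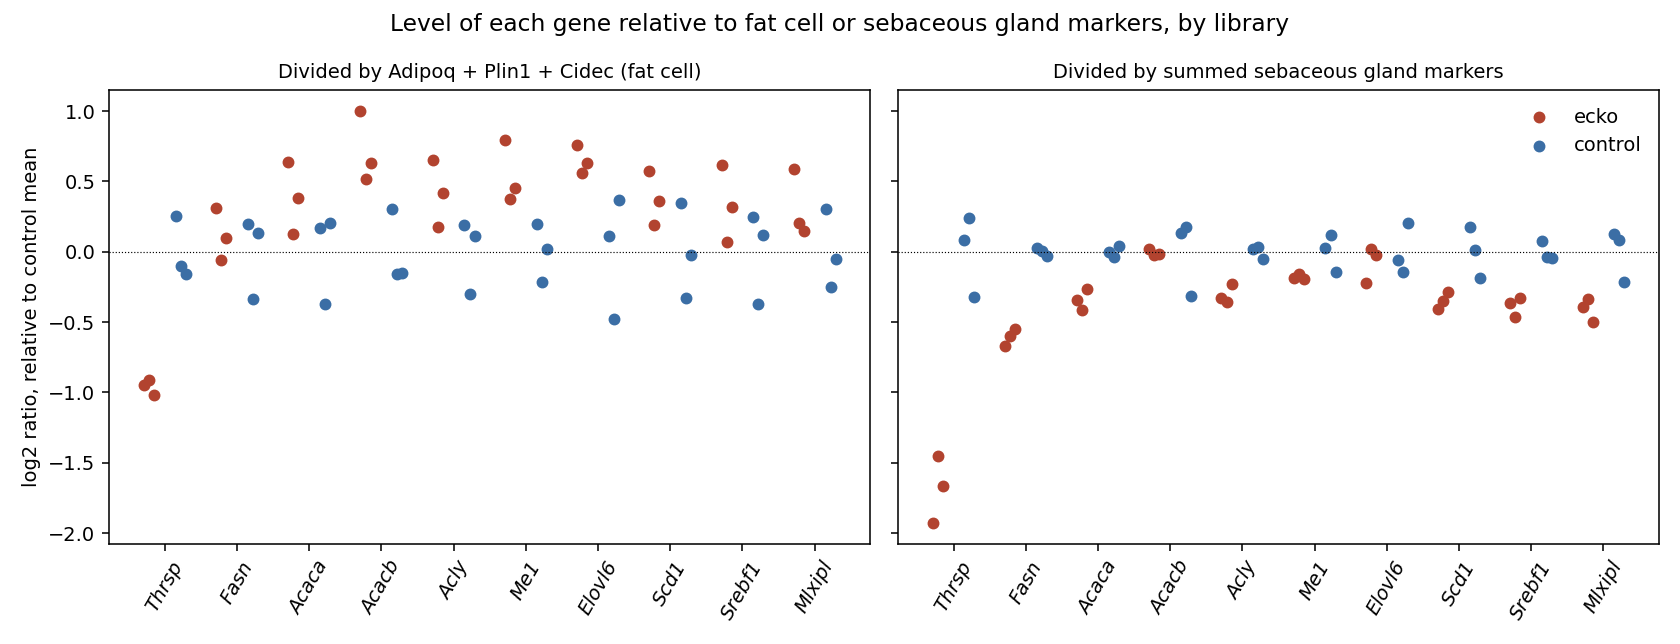
Log2 ratio of each gene to the summed fat cell markers Adipoq, Plin1 and Cidec (left) or to the 6 sebaceous gland markers (right), relative to the control mean, for the 3 ecko and the 3 control libraries. On the left the ecko libraries of Thrsp lie near -1 and those of Fasn among the controls, and on the right both genes lie below the controls.

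The genes whose log2 CPM ran most nearly in step with Thrsp over the 6 libraries, among 12261 other genes of at least 5 CPM, were Dll4 (Pearson r = 0.993), Arap3 (0.992), Cdh4 (0.992), Rcan2 (0.991) and Clcn1 (0.990). Dll4, a Notch ligand gene of endothelium, fell (edgeR adjusted p = 0.00113) and was at 3.24, 4.21 and 3.24 CPM in ecko libraries and 10.3, 10.9 and 9.36 CPM in control libraries. For Fasn they were Mtfr1l (0.996), Tll1 (0.994), Nr3c2 (0.989), B4gat1 (0.988) and Prkag2 (0.986). None of these was called, with edgeR adjusted p from 0.0659 for Nr3c2 to 0.429 for Prkag2. Nr3c2, which encodes the mineralocorticoid receptor, was at 5.74, 6.36 and 6.77 CPM in ecko libraries and 9.41, 8.20 and 9.58 CPM in control libraries. Prkag2 encodes a subunit of AMP-activated protein kinase, the enzyme that inactivates acetyl-CoA carboxylase, and was at 48.9, 50.5 and 50.6 CPM in ecko libraries and 54.3, 52.7 and 54.0 CPM in control libraries. These points share their libraries and the difference between groups, so the values are descriptions of 6 libraries. None of these genes was among the 10, and no gene appeared on both lists.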

How the data were processed

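The 3 ecko and 3 control samples of ear skin were frozen, RNA was extracted with Trizol, and its poly(A) fraction was made into circular single-stranded libraries, per the labels' protocols. The values deposited by the authors are expected counts, estimates of reads per gene, with no scaling of libraries, per the file headers. Of these values 10.5% were not whole. HISAT2 2.2.1, Bowtie2 2.4.5, RSEM 1.3.1 and GRCm38.p6 are named in the submitters' processing notes, without their roles. Annotation and strand setting are not given in the sources used here. Whether reads of genes that overlap on opposite strands were separated is therefore not known.

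Counts were rounded. Genes were filtered with filterByExpr (minimum count 10), which removed 3556, and scaled by TMM, and CPM is per TMM-scaled library total. The test was edgeR's quasi-likelihood test (edgeR 4.0.16, R 4.3.3) over the 6 libraries with genotype alone in the model, Benjamini-Hochberg adjustment over the 14866 genes and a threshold of 0.05. The SE was the log2 fold change over the square root of F. The biological coefficient of variation was 8.80%. No library was a duplicate: within groups the variance was 4.89 to 14.8 times that of sampling. Ratios were compared with two-sided exact permutation tests over libraries (scipy 1.17.1). Of the gene identifiers, 99.7% matched RefSeq (GRCm38.p6), the source of coordinates and promoter sequences, and exon lengths came from GENCODE M21. On 5 simulated sets drawn from the ecko against control comparison, 14885.4 genes were tested on average. Recovery was 69.4% for changes of 0.5 log2 units and 98.1% for changes of 1, and false calls made up 4.29%. Changes were placed only in genes of higher count, and the spread of each gene was set by the trend over genes. Recovery for genes of low count or of wider spread than the trend was therefore not measured.

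The 10 genes and the gene lists were chosen with earlier results of these data known. Named were Kdr, the 10 genes, their paralogs, up to 4 genes with the smallest p and every called gene of each pathway list, fat cell and sebaceous gland markers of at least 1 CPM, and the 5 genes most like Thrsp and Fasn in pattern (log2 of CPM plus 0.5). A few list genes are not reported here by name. Others were named, and the 5 ratios between genes chosen, after their values were seen. Marker lists covered fat cells, brown fat, sebaceous gland, skeletal muscle, keratinocytes, hair shaft and sheath, endothelium, fibroblasts, leukocytes and liver. Alternatives were DESeq2 1.42.0, RLE or upper-quartile scaling, limma-voom (limma 3.58.1), a minimum total count of 1, a minimum of 1 CPM in at least 3 libraries, a replicate block, a sex term, the male libraries alone (at least 500 reads from Ddx3y, Uty, Kdm5d and Eif2s3y), leaving out single libraries, a looser threshold of 0.1 and other marker sets. Figures were drawn with matplotlib 3.10.9.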

Additional observations from a re-analysis of the deposited data

How the results depend on the processing

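Over 15 other fits, Thrsp, Fads2 and Cpt1a kept their call in all, Fasn lost it in 5 and Srebf1 gained it in 1, and Elovl6 changed sign without ecko 2 (log2 fold change -0.04) and without control 2 (-0.10). The range for Elovl6 with 1 library left out was -0.10 to 0.22. The other members did not pass in any fit. DESeq2 called 195 genes higher, with 2 higher and 7 lower among the pathway lists. A threshold of 0.1 called 182 higher and 269 lower, with 6 lower among the pathway lists. In the male libraries alone 91 genes were lower, 1 of them among the 10 synthesis genes. With 1 library left out, 22 to 165 of all genes were higher and 34 to 242 lower, 1 to 3 of the synthesis genes were lower, and 1 to 3 of the pathway list genes were higher and 1 to 4 lower. Whether the replicate number paired the samples was not settled. Deviations from the group means correlated at 0.06, 0.02 and 0.19 for equal numbers and at -0.12 to 0.08 for unequal numbers. The highest value was that of replicate 3, the female sample of both groups. With the replicate number as a block 63 genes were higher and 129 lower, against 102 and 160 without it. In both fits 2 of the synthesis genes were lower. The cause of these shifts was not tested.

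The log2 difference of a ratio depends on the markers it is set against. Against all 10 fat cell markers it was -1.20 for Thrsp, -0.12 for Fasn, 0.14 for Acaca, 0.48 for Acacb, 0.18 for Acly, 0.31 for Me1, 0.41 for Elovl6, 0.14 for Scd1, 0.10 for Srebf1 and 0.08 for Mlxipl. Against sebaceous gland markers it was -1.68 for Thrsp, -0.61 for Fasn, -0.34 for Acaca, -0.0058 for Acacb, -0.31 for Acly, -0.18 for Me1, -0.075 for Elovl6, -0.35 for Scd1, -0.39 for Srebf1 and -0.41 for Mlxipl. Against keratinocyte markers it was -1.74 for Thrsp, -0.66 for Fasn, -0.40 for Acaca, -0.061 for Acacb, -0.36 for Acly, -0.24 for Me1, -0.13 for Elovl6, -0.40 for Scd1, -0.44 for Srebf1 and -0.46 for Mlxipl. With 3 libraries a group these ratios cannot reach a p below 0.1.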
